A study of Mus musculus with 7 samples.

Results

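The genes described here are the p53 and Ink4/Arf barrier genes: Trp53, Mdm2, Cdkn1a, Cdkn2a, Cdkn2b, Cdkn2c, Ccng1, Trp53inp1, Sesn2 and Phlda3. A gene was taken where the platform annotation gives it as the only symbol of a row, and 8 of the 10 genes had such a row, out of 13562 genes measured in this way. No annotated row lists Trp53, and the only row that lists Cdkn1a also lists a second symbol, so neither gene was analysed here. The study asked how Utx (Kdm6a), an enzyme that removes the repressive histone mark written by Polycomb, acts in reprogramming to pluripotency.

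RNA from 7 mouse cell samples was hybridised to 1 Affymetrix array each. The embryonic stem cells (ESCs) were of the V6.5 line, either wild type (WT, Utx +/Y) or Utx knockout (KO, Utx -/Y). The fibroblasts (MEFs, mouse embryonic fibroblasts) were V19-OSKM cells, Utx +/Y or -/Y. All 4 of these MEF samples carry the factors Oct4 (Pou5f1), Sox2, Klf4 and Myc (OSKM) under doxycycline (DOX), and each genotype was profiled without and with DOX. The seventh sample was MEFs made from Nanog-/- ESCs and transduced with an OSKM lentivirus for 8 days. The labels do not say how long DOX was given or how many clones or animals each sample stands for. With 1 array per condition there is no replicate spread, no test was made, and every difference is a log2 difference between 2 arrays.

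The Ink4/Arf locus and p53 form a pair of brakes on the cell cycle that fibroblasts are known to engage when they are driven towards pluripotency. The Ink4 proteins block the cyclin D kinases and so keep the retinoblastoma protein active, whereas Arf, made from the same gene as Ink4a, restrains Mdm2 and so frees p53. Polycomb complexes keep the locus silent in young and pluripotent cells, and p53 in turn activates a set of genes that includes its own inhibitor Mdm2.

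The starts of the genes are shown first because the locus and p53 are read at them. The sequences are RefSeq's, from build GRCm38.p6, 5′ to 3′ on the gene's strand, and run from 250 bases before to 50 bases after each start. In the Ink4/Arf promoters the capitals mark every CG pair, read on the strand printed. The upstream Cdkn2a start gives the Arf transcript and lies at chr4:89294570-89294869 (minus strand), the downstream start gives Ink4a and lies at chr4:89282143-89282442 (minus strand), and the Cdkn2b start lies at chr4:89310983-89311282 (minus strand).
Cdkn2a, Arf start: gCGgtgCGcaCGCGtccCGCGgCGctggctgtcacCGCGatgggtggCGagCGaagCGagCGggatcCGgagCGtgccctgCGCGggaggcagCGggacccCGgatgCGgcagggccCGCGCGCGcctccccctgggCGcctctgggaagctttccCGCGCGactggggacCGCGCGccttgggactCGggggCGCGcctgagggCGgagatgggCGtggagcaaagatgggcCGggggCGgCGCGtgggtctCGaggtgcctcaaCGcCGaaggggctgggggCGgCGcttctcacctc
Cdkn2a, Ink4a start: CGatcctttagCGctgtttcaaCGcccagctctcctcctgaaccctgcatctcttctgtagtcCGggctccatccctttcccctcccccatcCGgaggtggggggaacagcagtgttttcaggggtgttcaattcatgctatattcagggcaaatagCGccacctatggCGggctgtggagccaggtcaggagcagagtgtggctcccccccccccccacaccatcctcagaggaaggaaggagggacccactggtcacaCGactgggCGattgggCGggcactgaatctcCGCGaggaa
Cdkn2b start: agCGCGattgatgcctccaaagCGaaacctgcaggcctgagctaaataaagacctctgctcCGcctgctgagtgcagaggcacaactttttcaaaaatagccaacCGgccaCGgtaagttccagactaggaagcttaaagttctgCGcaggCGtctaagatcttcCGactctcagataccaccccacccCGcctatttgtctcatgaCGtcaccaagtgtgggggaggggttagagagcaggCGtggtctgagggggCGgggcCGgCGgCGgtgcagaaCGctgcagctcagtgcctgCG
The Arf start held 45 CG pairs, more than 98.1% of the 32851 promoters in the RefSeq table. The Cdkn2b start held 18 CG pairs and the Ink4a start 12, against a median of 7 over all promoters. The array has 1 row for Cdkn2a, and that row cannot separate the Arf transcript from the Ink4a transcript.

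In the promoters of the p53 target genes the capitals mark a decamer of the p53 consensus, searched under that name on both strands and alone, with no other motif searched. Of 4 promoters of measured p53 arm genes 2 held it, those of Mdm2 and Ccng1, and 0 of 5 promoters of Ink4 genes did, against 8.36% of all promoters of this length. The Mdm2 window lies at chr10:117710709-117711008 and the Ccng1 window at chr11:40755237-40755536, both on the minus strand. Trp53inp1 was not matched in the promoter table.
Mdm2: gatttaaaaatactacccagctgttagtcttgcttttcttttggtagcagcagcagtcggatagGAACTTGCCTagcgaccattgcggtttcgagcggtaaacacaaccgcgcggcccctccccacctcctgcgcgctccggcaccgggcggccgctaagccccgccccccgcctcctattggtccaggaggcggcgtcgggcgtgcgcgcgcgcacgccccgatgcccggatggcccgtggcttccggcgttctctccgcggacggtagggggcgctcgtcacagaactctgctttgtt
Ccng1: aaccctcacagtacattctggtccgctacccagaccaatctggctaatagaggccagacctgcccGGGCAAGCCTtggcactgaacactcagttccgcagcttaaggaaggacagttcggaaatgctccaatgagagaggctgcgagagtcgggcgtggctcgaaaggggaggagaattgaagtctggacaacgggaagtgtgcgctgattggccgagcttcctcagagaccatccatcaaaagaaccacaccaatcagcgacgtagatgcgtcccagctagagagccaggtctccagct
The decamer began 186 bases before the Mdm2 start and 185 bases before the Ccng1 start. A match of letters is a description and was not tied to binding by any measurement here.

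The libraries were compared with their labels before the barrier genes were read. Kdm6a was lower in the library labelled KO in all 3 settings, with a log2 difference of -1.15 between the ESCs, -1.90 between the untreated MEFs and -1.36 between the DOX-treated MEFs. Its value in the KO-labelled library without DOX, 6.32, lay under the floor given below, so the -1.90 is not a measured size. The MEF libraries labelled KO went against their DOX labels at Pou5f1, the factor switched on by DOX. Pou5f1 read 8.19 without and 12.59 with DOX in WT MEFs, but its level was 11.26 in the KO-labelled library without DOX and 5.12 in its DOX-labelled partner. Nanog read 6.56 in the Nanog KO fibroblasts and 5.48 in WT MEFs with DOX, both under the floor given next, so it did not check that genotype. The contradicted MEF libraries are named by their labels throughout, and any direction drawn from them rests on labels that Pou5f1 contradicts. The deposited values of the Nanog KO array had a median of 8.55, against 7.68 to 7.84 on the 6 other arrays, so its differences are given also with the array medians aligned. A floor for low signal was set at the 40th percentile of all values, 7.34. A gene is counted as higher or lower where 2 arrays differed 2-fold or more and the higher value exceeded this floor.

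Among the measured barrier genes, Cdkn2b and then Cdkn2a spanned most on the deposited values once values under the floor were set to it. Cdkn2b then spanned at least 2.42 and Cdkn2a at least 1.97 on the log2 scale, more than 87.7% and 79.2% of all genes above the floor on any array, treated alike. Cdkn2c spanned at least 0.81, more than 23.4% of those genes. The highest Cdkn2a and Cdkn2c values were those of the Nanog KO array, whose deposited median was higher. Without that array the highest deposited Cdkn2a value was 8.34, and with medians aligned the Nanog KO value was 8.66. The rank of Cdkn2a thus rests on that array, whereas Trp53inp1 spanned 1.76 with and without it. The deposited values spanned 3.22 for Cdkn2c, 2.80 for Cdkn2b and 2.77 for Cdkn2a, but the low ends lay under the floor. Levels of different probes are not set against each other, and with no spread known, neighbours in the orders given next cannot be called different.

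Cdkn2a, which encodes Ink4a and Arf, exceeded the floor on 3 arrays. It read 7.02 in WT ESCs, 6.86 in KO ESCs, 7.01 in WT MEFs without DOX and 6.54 in WT MEFs with DOX. The library labelled KO read 8.31 without and 8.34 with DOX, and the Nanog KO fibroblasts read 9.31. The 4 ESC and WT MEF arrays thus all lay under the floor. Both MEF libraries labelled Utx KO lay above it, as did the Nanog KO array, which is of a different genotype. With array medians aligned, the Nanog KO value was 8.66, beside 8.53 and 8.45 in the libraries labelled KO without and with DOX.

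Cdkn2b encodes Ink4b, a cyclin D kinase inhibitor known as a target of TGF-beta signalling, and lies next to Cdkn2a. It exceeded the floor on 6 arrays. Its highest value was 9.76 in WT MEFs without DOX, followed by 9.39 in the library labelled KO with DOX and 9.07 in the Nanog KO fibroblasts. Next came the KO-labelled library without DOX at 8.42, then 8.36 in WT ESCs, 8.22 in WT MEFs with DOX and 6.97 in KO ESCs. The array highest for Cdkn2b, WT MEFs without DOX, was under the floor for its neighbour Cdkn2a.

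Cdkn2c encodes Ink4c, another kinase inhibitor of this family, at a separate locus. It read 4.92 in WT ESCs, 5.07 in KO ESCs and 5.55 in WT MEFs with DOX. It read 6.87 in WT MEFs without DOX, 7.004 and 7.80 in the libraries labelled KO without and with DOX, and 8.15 in the Nanog KO fibroblasts. Only the 7.80 and 8.15 exceeded the floor, so the lower values carry no order. With medians aligned the Nanog KO value became 7.49 and the library labelled KO with DOX, at 7.91, was the highest.

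**Figure D1:**
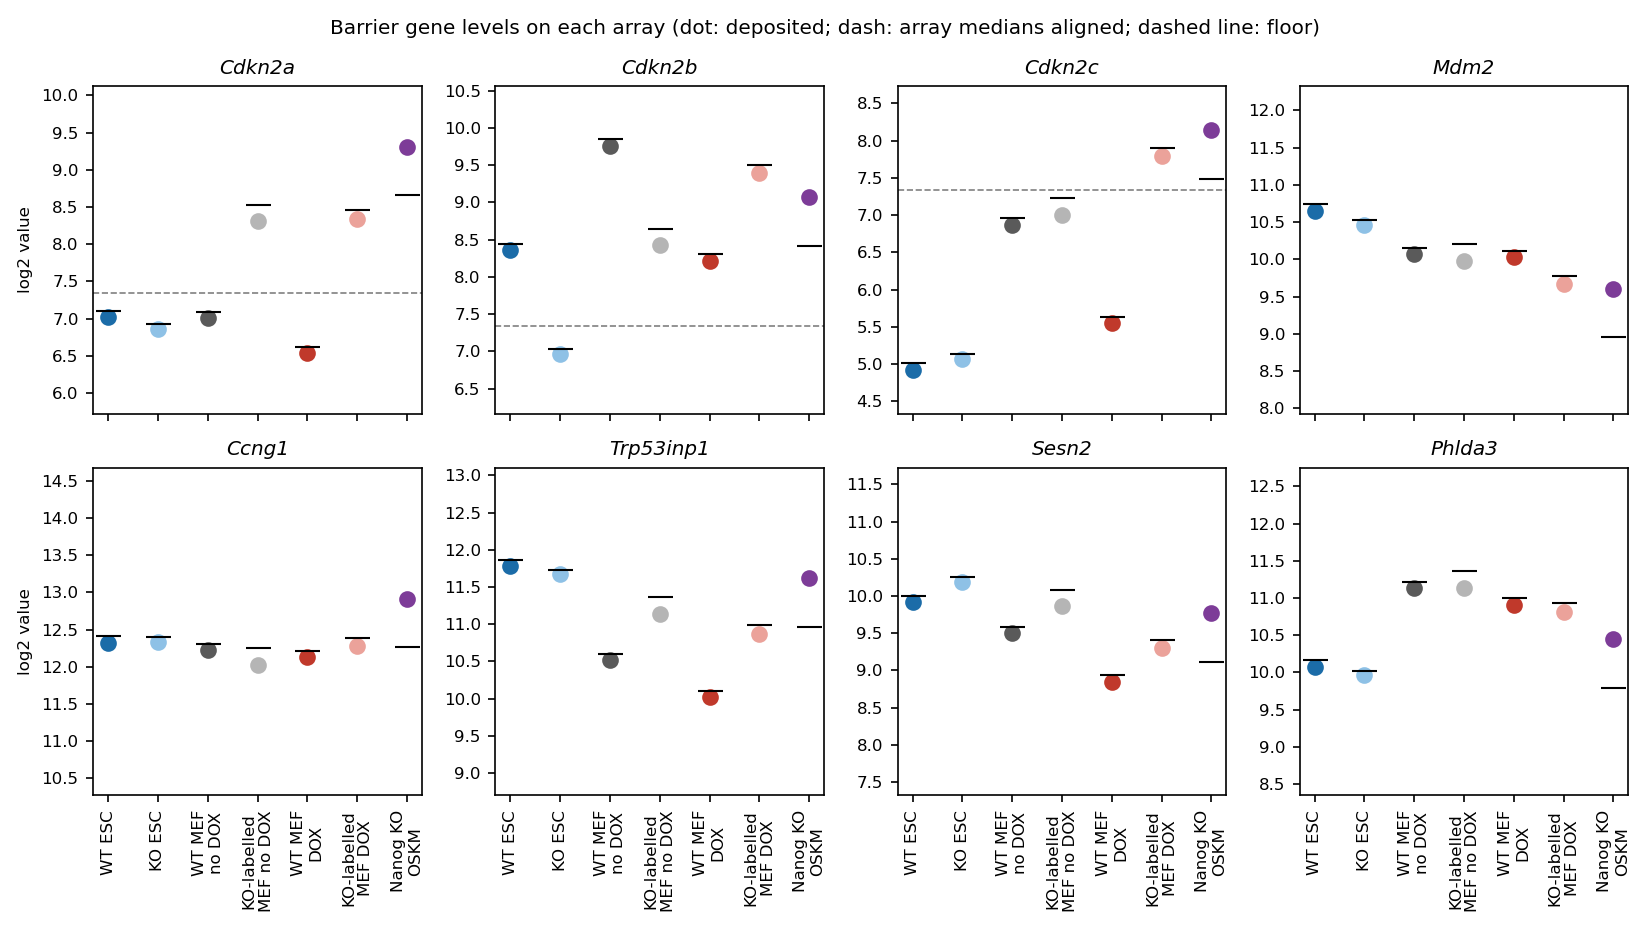
Log2 values of the 8 measured barrier genes on the 7 arrays, 1 array per condition; dots are deposited values, short dashes the values with array medians aligned, and the dashed line is the floor of 7.34 where it falls within the panel. Each panel spans the same number of log2 units around its own gene, and the low values of Cdkn2a and Cdkn2c, on 4 and 5 arrays, lie under the floor, while Cdkn2b is above it on 6 arrays and Ccng1 spreads over 0.89.

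The p53 arm was read through 5 genes, all above the floor on all 7 arrays. Mdm2, the ubiquitin ligase that degrades p53, read 10.65 in WT ESCs and 10.46 in KO ESCs. It read 10.07 and 10.03 in WT MEFs without and with DOX, 9.98 and 9.67 in the libraries labelled KO without and with DOX, and 9.61 in the Nanog KO fibroblasts. The ESC arrays were the highest pair and the Nanog KO array the lowest, over a span of 1.04 that became 1.78 with medians aligned.

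Ccng1 encodes cyclin G1, a p53 target that acts back on Mdm2. It read 12.32 in WT ESCs, 12.33 in KO ESCs, 12.22 and 12.12 in WT MEFs without and with DOX, 12.03 and 12.28 in the libraries labelled KO without and with DOX, and 12.91 in the Nanog KO fibroblasts. The span of 0.89 was 0.30 without the Nanog KO array and 0.20 with medians aligned, the smallest of the 8 genes. Of all genes above the floor on any array, 11.6% had a smaller deposited span.

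Trp53inp1 encodes a stress-induced partner of p53 that promotes cell cycle arrest. It read 11.78 in WT ESCs, 11.67 in KO ESCs and 11.61 in the Nanog KO fibroblasts. It read 11.14 and 10.87 in the libraries labelled KO without and with DOX, and 10.51 and 10.02 in WT MEFs without and with DOX. The ESC arrays were thus the highest pair and the WT MEF arrays the lowest pair, also with medians aligned, where the Nanog KO value was 10.96.

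Sesn2 encodes sestrin 2, a stress protein that restrains mTORC1. It read 9.91 in WT ESCs, 10.19 in KO ESCs, 9.50 and 8.85 in WT MEFs without and with DOX, 9.86 and 9.30 in the libraries labelled KO without and with DOX, and 9.77 in the Nanog KO fibroblasts. The array labelled with DOX was the lower of its pair in both genotypes, but Pou5f1 contradicts the DOX labels of the KO pair. With those libraries exchanged, Sesn2 read 0.56 higher with DOX in that pair.

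Phlda3, a p53 target that opposes Akt at the membrane, had the reverse order of cell types. It read 10.08 in WT ESCs and 9.96 in KO ESCs, against 11.13 and 10.91 in WT MEFs without and with DOX and 11.14 and 10.82 in the libraries labelled KO without and with DOX. The Nanog KO fibroblasts read 10.45, and 9.79 with medians aligned. All 4 V19-OSKM MEF arrays exceeded both ESC arrays.

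In the 5 comparisons of DOX or of the Utx label, every difference counted at 2-fold was of an Ink4 gene, given as a description. Of 15 differences of Ink4 genes, 10 had a value above the floor and 7 of these were counted at 2-fold or more. With values under the floor set to it, 5 remained 2-fold, with a median size of 0.46 and a largest size of 1.54 on the log2 scale over all 15. Of 25 differences of p53 arm genes, all above the floor, 0 were 2-fold or more, with a median size of 0.25 and a largest size of 0.85. Over all genes, these comparisons ran from 0.651% higher and 3.18% lower in ESCs to 14.3% and 12.1% for the Utx label with DOX. With the 2 libraries labelled KO exchanged, Trp53inp1 and Sesn2 did reach 2-fold in MEFs with DOX, so the contrast between the arms rests on those labels. Comparisons that share an array share its error, so these counts are not independent. Cdkn2a and Cdkn2c also lay under the floor on 4 and 5 of the 7 arrays, and values there carry no order.

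In WT MEFs all 8 barrier genes read lower with DOX than without, Cdkn2a and Cdkn2c with both values under the floor. Cdkn2b was 2.91-fold lower, at 8.22 against 9.76, a log2 difference of -1.54. It was the single gene counted as lower of the 6 above the floor, and 0 were counted as higher, where 13.7% of all genes were 2-fold or more lower and 11.9% higher. Cdkn2c differed by -1.32. Sesn2 differed by -0.65, Trp53inp1 by -0.49, Cdkn2a by -0.47, Phlda3 by -0.22, Ccng1 by -0.10 and Mdm2 by -0.03. The median over the 8 genes was -0.48, against 0.00 over all genes above the floor.

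Cell type markers moved with this comparison. The median of 11 fibroblast markers was 11.85 without and 7.30 with DOX, with all 11 and then 5 above the floor. The median of 9 macrophage markers was 9.91 and then 5.36, with all 9 and then 1 above the floor. The median of 8 epithelial markers was 6.03 and then 11.04, with 1 and then all 8 above the floor, while 13 proliferation markers had medians of 8.91 and 9.10. The part of these markers in the lower Cdkn2b value was not tested. In such bulk RNA, fewer cells of a type and less RNA per cell cannot be told apart.

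Between the libraries labelled KO, with and without DOX, Cdkn2b read 0.97 higher with DOX on the log2 scale as labelled. Cdkn2c, under the floor without DOX, was at least 1.37-fold higher, and Cdkn2a differed by 0.04. Mdm2 differed by -0.31, Ccng1 by 0.25, Trp53inp1 by -0.26, Sesn2 by -0.56 and Phlda3 by -0.32. None of the 8 genes reached 2-fold, where 6.81% of all genes were counted as higher and 2.93% as lower (5.01% and 3.94% with medians aligned). Since Pou5f1 went against these DOX labels, the direction follows the labels alone. No exchange of the libraries was assumed. For barrier genes, values with the DOX labels exchanged are given beside those as labelled, whereas markers and gene lists are given as labelled alone. With the 2 libraries exchanged every sign turns, and Cdkn2b then differed by -0.97, the same sign as its -1.54 in WT MEFs. As labelled, the DOX differences of Cdkn2b lay 2.51 apart, and exchanged they lay 0.58 apart, with no test possible from single arrays.

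Markers moved with this comparison too. With DOX as labelled, 4 of 8 epithelial markers were lower, among them Cdh1 (-4.02), Dsp (-2.45) and Krt19 (-1.90), and 0 higher. On the array labelled with DOX, Cdh1 (5.52), Dsp (5.19) and Krt19 (7.29) lay under the floor, so their differences are not measured sizes. Of 9 macrophage markers 4 were higher, led by Cd68 (1.52) and Lyz2 (1.33), as were the fibroblast markers Lum (1.87) and Postn (1.33). Of 13 proliferation markers 2 were lower, Mcm7 (-1.21) and Mcm2 (-1.05). Their part in the Cdkn2b difference was not tested.

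**Figure D2:**
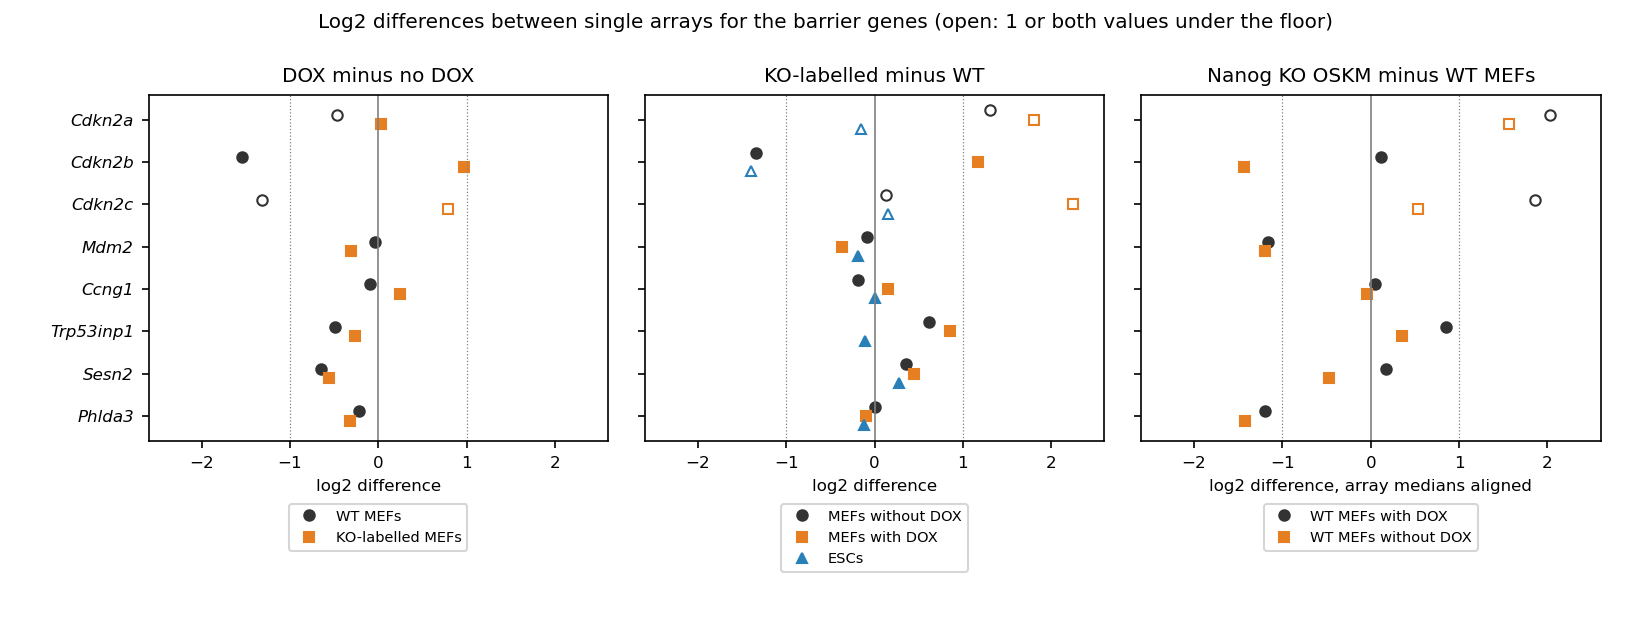
Log2 differences between single arrays for the 8 barrier genes, for DOX against no DOX (left), the library labelled KO against WT (middle) and the Nanog KO OSKM fibroblasts against WT MEFs with array medians aligned (right); dotted lines mark 2-fold. Cdkn2b lies at -1.54 in WT MEFs and 0.97 in the libraries labelled KO on the left, and open symbols mark differences with 1 or both values under the floor, which are not measured sizes.

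Without DOX, the library labelled KO had higher Cdkn2a and lower Cdkn2b than WT MEFs. Cdkn2a differed by 1.30, at least 1.96-fold when the WT value, which lay under the floor, was set to the floor. Cdkn2b differed by -1.34, or 2.53-fold lower. These 2 of the 7 genes above the floor were the ones counted, where 5.04% of all genes were higher and 9.53% lower (6.99% and 7.07% with medians aligned). With the 2 libraries labelled KO exchanged, Cdkn2a differed by 1.34, at least 2.01-fold, and was still counted, whereas Cdkn2b differed by -0.37 and was not. All-gene shares were then 1.88% and 2.63%. As labelled, Trp53inp1 differed by 0.62, Sesn2 by 0.36, Ccng1 by -0.19, Cdkn2c by 0.13 under the floor, Mdm2 by -0.09 and Phlda3 by 0.00.

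With DOX, all 3 Ink4 genes were higher in the library labelled KO than in WT MEFs, as labelled. Cdkn2b was 2.25-fold higher with both values above the floor (1.17). Cdkn2a (1.80) was at least 2.01-fold and Cdkn2c (2.24) at least 1.37-fold higher, since their WT values lay under the floor. So 3 of 8 genes were counted as higher and 0 as lower, where 14.3% of all genes were higher and 12.1% lower. With the 2 libraries exchanged, Cdkn2a differed by 1.77, at least 1.96-fold, Cdkn2b by 0.21, and Cdkn2c lay under the floor on both arrays. Of the Ink4 genes only Cdkn2a was then counted, beside Trp53inp1 (1.12) and Sesn2 (1.01), where 10.6% of all genes were higher and 13.7% lower. As labelled, Trp53inp1 differed by 0.85, Sesn2 by 0.45, Ccng1 by 0.15, Phlda3 by -0.09 and Mdm2 by -0.36. The median over the 8 genes was 0.65, against -0.00 over all genes.

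The same markers moved between these arrays. With DOX, WT MEFs and the library labelled KO had fibroblast medians of 7.30 and 11.46, macrophage medians of 5.36 and 7.51, and epithelial medians of 11.04 and 5.76. Without DOX, the fibroblast medians were 11.85 and 11.25, the macrophage medians 9.91 and 6.72, with 9 and then 3 of 9 above the floor, the epithelial medians 6.03 and 7.28, with Cdh1 3.75 and Dsp 2.08 higher, and the proliferation medians 8.91 and 10.52. In WT MEFs without DOX, Cdh1 (5.79) and Dsp (5.56) lay under the floor, so their differences are not measured sizes. The part of the markers in the Ink4 differences was not tested, and the direction rests on labels that Pou5f1 contradicts.

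**Figure D3:**
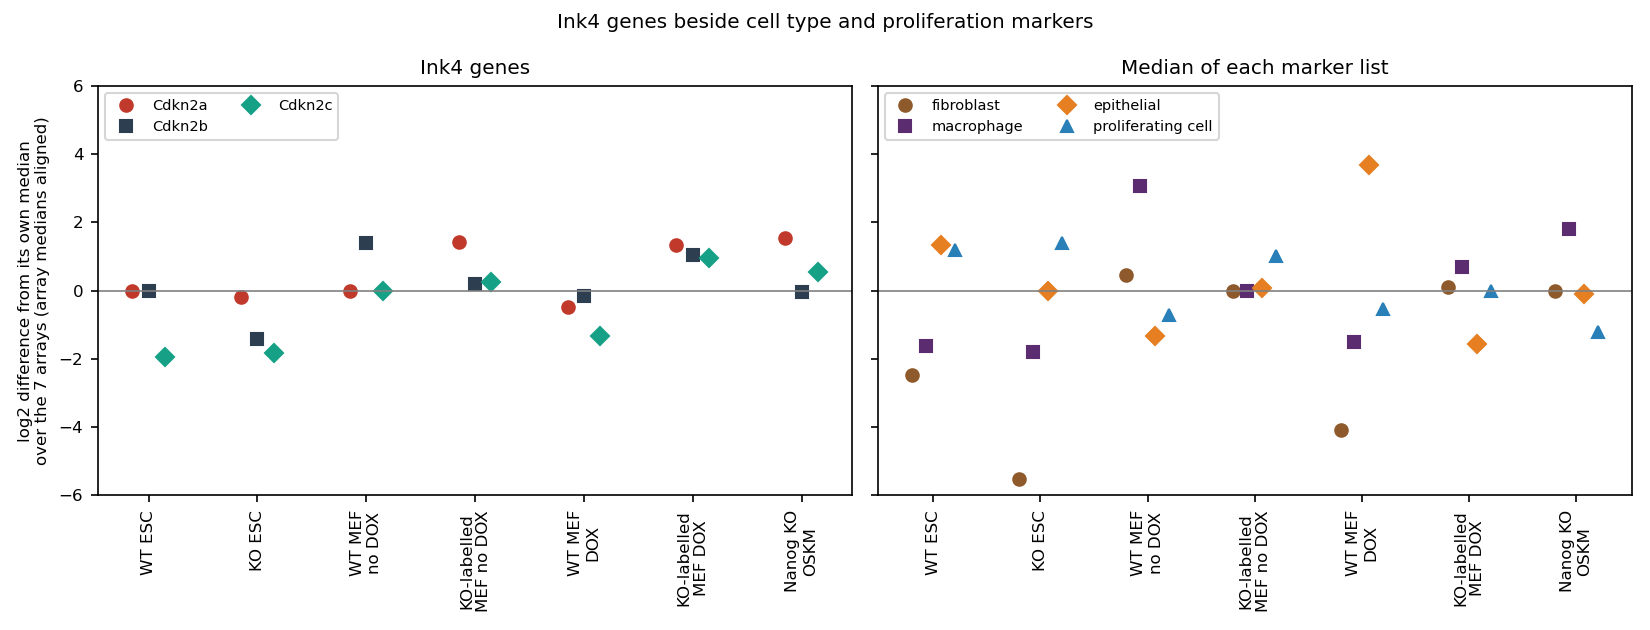
Log2 differences of the 3 Ink4 genes (left) and of the medians of 4 marker lists (right) on each array from their own median over the 7 arrays, with array medians aligned. The fibroblast markers lie at -5.51 in KO ESCs, -4.09 in WT MEFs with DOX and -2.48 in WT ESCs. In WT MEFs with DOX, Cdkn2a lies at -0.49, Cdkn2b at -0.14 and Cdkn2c at -1.32. All 3 Ink4 genes are under 0 in KO ESCs, whereas Cdkn2a and Cdkn2b are at 0 in WT ESCs. Cdkn2a is high on both MEF arrays labelled Utx KO and on the Nanog KO array, which is of a different genotype. Values under the floor are included and carry no order.

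In ESCs the Utx knockout had lower Cdkn2b and little other difference. Its levels were 8.36 in WT ESCs and 6.97 in KO ESCs. The log2 difference of -1.39 is at least 2.03-fold lower with the KO value set to the floor. Its size exceeded that of 97.8% of all genes compared. So 1 of the 6 genes above the floor was counted as lower and 0 as higher, where 3.18% of all genes were lower and 0.651% higher (3.45% and 0.625% with medians aligned). Sesn2 differed by 0.28, Mdm2 by -0.19, Phlda3 by -0.12, Trp53inp1 by -0.11 and Ccng1 by 0.01. Cdkn2a, at -0.16, and Cdkn2c, at 0.15, were under the floor on both arrays. The fibroblast marker median was also lower in KO ESCs, at 5.90 against 8.91, with 1 and 7 of 11 markers above the floor. Its part in the Cdkn2b value was not tested.

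Across cell types, WT ESCs were compared with WT MEFs without DOX. Trp53inp1 was 2.40-fold higher in ESCs (log2 difference 1.27), whereas Cdkn2b was 2.64-fold lower (-1.40) and Phlda3 2.07-fold lower (-1.05). So 1 of the 6 genes above the floor was counted as higher and 2 as lower, where 14.5% of all genes were higher and 19.8% lower (14.7% and 19.7% with medians aligned). Mdm2 differed by 0.58, Sesn2 by 0.41 and Ccng1 by 0.10. Cdkn2c differed by -1.95 and Cdkn2a by 0.02, both under the floor on these arrays. Cdkn2a thus gave no measured difference between WT MEFs and WT ESCs.

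The Nanog KO fibroblasts had the highest deposited Cdkn2a. Against WT MEFs with DOX, deposited Cdkn2a was at least 3.92-fold higher and Cdkn2c at least 1.75-fold, since both WT values lay under the floor. These bounds include the higher median of the Nanog KO array. With medians aligned its values were 8.66 for Cdkn2a and 7.49 for Cdkn2c, and bounds were not computed on that scale. As deposited the 2 genes differed by 2.77 and 2.59, and by 2.03 and 1.85 with medians aligned, which are not measured sizes. Trp53inp1 differed by 1.59, Sesn2 by 0.92, Cdkn2b by 0.85 and Ccng1 by 0.79, and aligned by 0.85, 0.18, 0.11 and 0.05. Mdm2 differed by -0.42 and Phlda3 by -0.46, and aligned by -1.16 and -1.20. So 3 of 8 genes were higher and 0 lower on the deposited values, where 37.2% of all genes were higher and 5.53% lower. With medians aligned 2 were higher and 2 lower, against 13.1% and 13.3% of all genes.

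Against WT MEFs without DOX, the same array gave 3 of 8 genes higher and 0 lower, where 35.1% of all genes were higher and 3.72% lower. With medians aligned, 1 gene was higher (Cdkn2a, 1.56) and 3 were lower (Cdkn2b, -1.43, Phlda3, -1.43, and Mdm2, -1.20), against 9.41% and 11% of all genes. Cdkn2a, whose WT value again lay under the floor, was counted in both comparisons under either scaling. Cdkn2c, at 1.28 deposited and 0.53 aligned, was counted here on the deposited values alone, and the deposited Cdkn2b difference was -0.69. This sample differs from the V19-OSKM MEFs also in its origin and in how the factors were delivered, which cannot be told apart from the Nanog genotype. Its fibroblast marker median was 12.13, its macrophage median 9.40 and its epithelial median 7.97, and their part in these differences was not tested.

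The genes around the barrier were read from lists of p53 regulators, p53 targets, kinase inhibitors, the retinoblastoma pathway, and repressors and activators of Ink4/Arf. These are given as labelled alone, and calls that use the libraries labelled KO may not hold with those exchanged. The p53 target Perp read 7.30 in WT MEFs without DOX, and 10.14 and 7.52 in the libraries labelled KO without and with DOX. A log2 difference of a list gene with a value under the floor is given without a bound and is not a measured size. The 14 p53 regulators had 0 genes higher and 0 lower in each of the 5 comparisons of DOX or of the Utx label. Of them 13 were above the floor in each of these MEF comparisons and 14 in ESCs. All-gene shares, higher and lower, were 11.9% and 13.7% for DOX in WT MEFs and 6.81% and 2.93% between the libraries labelled KO. For the Utx label they were 5.04% and 9.53% without DOX, 14.3% and 12.1% with DOX, and only 0.651% and 3.18% in ESCs. In WT ESCs against WT MEFs without DOX, 7 of the 14 were higher, where 14.5% of all genes were, including the checkpoint kinase genes Chek2 (2.80) and Chek1 (2.09), the deacetylase gene Sirt1 (2.10) and Mdm4 (1.49), the partner of Mdm2. Mdm4 differed by 0.17 with DOX in WT MEFs, by 0.35 between the libraries labelled KO, by -0.46 and -0.27 for the Utx label without and with DOX, and by 0.19 in ESCs. The only measured p53 family gene was Trp73, at or under 6.54 on every array.

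Among 23 other p53 targets, DOX in WT MEFs left 2 higher and 3 lower of 20 above the floor, near the all-gene shares of 11.9% and 13.7%. Perp, which encodes a protein of desmosomes, was higher by 4.70 and Btg2, an antiproliferative gene, by 1.72. Dram1, an autophagy gene, differed by -3.54, the death receptor gene Fas by -2.84 and the growth arrest gene Gadd45a by -1.11. With DOX, Dram1 (5.82), Fas (5.53) and Gadd45a (6.88) lay under the floor, as did Perp (7.30) without DOX, so these differences are not measured sizes. For the Utx label with DOX these 5 genes gave -4.48 for Perp, -2.13 for Btg2, 3.64 for Dram1, 2.38 for Fas and 1.37 for Gadd45a. Both comparisons use the array of WT MEFs with DOX, on which Dram1, Fas and Gadd45a lay under the floor. In this list the median was -0.24 for DOX in WT MEFs and 0.14 for the Utx label with DOX, where 3 of 20 genes above the floor were higher and 2 lower against 14.3% and 12.1% of all genes.

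Without DOX the Utx label gave, of 21 above the floor, 2 targets higher, Perp (2.83) and Ddit4 (1.20), and 4 lower, Plk3 (-1.58), Dram1 (-1.27), Cd82 (-1.15) and Plk2 (-1.08), where 5.04% and 9.53% of all genes were. With medians aligned Plk2 was no longer counted. Between the libraries labelled KO, Dram1 was higher with DOX by 1.37 and Perp differed by -2.61. In ESCs 0 of the 23 targets were higher and 0 lower, where 0.651% and 3.18% of all genes were. WT ESCs against WT MEFs had 3 higher (Perp, 2.64, Gtse1, 1.89, and Psrc1, 1.07) and 3 lower (Dram1, -3.68, Cd82, -3.32, and Fas, -2.38), of 21 above the floor, against 14.5% and 19.8% of all genes.

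Among 3 other inhibitors of cyclin-dependent kinases, Cdkn1c differed by -2.13 with DOX in WT MEFs. It was higher by 2.65 in the library labelled KO with DOX, where Cdkn1b was higher by 1.47. Cdkn1b and Cdkn1c encode Cip/Kip proteins, which bind a wider range of cyclin complexes than Ink4 proteins do. In the retinoblastoma list of 15 genes, Ccnd1, the cyclin D1 gene, was higher by 1.20 with DOX in WT MEFs and differed by -1.71 for the Utx label with DOX, where E2f1 was higher by 1.09. So 1 gene was higher and 0 lower of 14 above the floor with DOX in WT MEFs, against 11.9% and 13.7% of all genes. For the Utx label with DOX 1 was higher and 1 lower of 14, against 14.3% and 12.1%. Ccne1 was higher by 1.89 in the library labelled KO without DOX and differed by -1.23 between the libraries labelled KO. None of the 15 was counted in ESCs, where 0.651% of all genes were higher and 3.18% lower, although quantile normalization gave 1, Ccnd2.

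Of 15 Polycomb genes and other repressors of the locus, DOX in WT MEFs left 1 higher and 1 lower of 11 above the floor. All-gene shares were 11.9% and 13.7%. The Utx label with DOX gave 1 higher and 1 lower of 12, where 14.3% and 12.1% of all genes were. Without DOX it gave 1 higher and 0 lower of 12, against 5.04% and 9.53%. Between the libraries labelled KO 0 of 12 were counted, against 6.81% and 2.93%. Bmi1, the Polycomb gene best known for silencing Ink4a/Arf, read 8.21 without and 7.13 with DOX in WT MEFs, and 7.55 and 8.50 in the libraries labelled KO. Its differences were -1.08 with DOX in WT MEFs and 1.37 for the Utx label with DOX, which share the array of WT MEFs with DOX. The Bmi1 value on that array, 7.13, lay under the floor, so neither is a measured size. Id1, a repressor of Ink4a, differed by 1.64 and -2.19 in these comparisons. Phc1 was higher by 1.01 in the library labelled KO without DOX. In WT ESCs, 7 of the 15 genes were higher than in WT MEFs, where 14.5% of all genes were, led by Cbx7 (3.61), Tbx3 (3.25), Phc1 (2.91) and Eed (1.78), and Id1 differed by -1.62. Hmga2 differed by -1.34 in KO against WT ESCs.

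Of 9 activators of the locus or of Arf signalling, Kdm6a itself was lower under each Utx label. Kdm6b, the related demethylase known to act at Ink4a/Arf, differed by 0.52 and 0.44 for the Utx label in MEFs without and with DOX, by 0.15 in ESCs and by -0.12 with DOX in WT MEFs. Dmtf1, an activator of Arf, differed by -1.14 in the library labelled KO without DOX, and was not counted with medians aligned. Between the libraries labelled KO, Kdm6a was higher with DOX by 1.25 and Dmtf1 by 1.10, of which Kdm6a was counted also with medians aligned. The Kdm6a value without DOX, 6.32, lay under the floor, so its 1.25 is not a measured size. In WT ESCs against WT MEFs without DOX, 3 of the 9 were lower, Ets1 (-1.80), Ets2 (-1.37) and Smad3 (-1.36), and 0 higher. All-gene shares were 19.8% lower and 14.5% higher. The ESC value of Ets1, 5.88, lay under the floor, so its -1.80 is not a measured size.

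**Figure D4:**
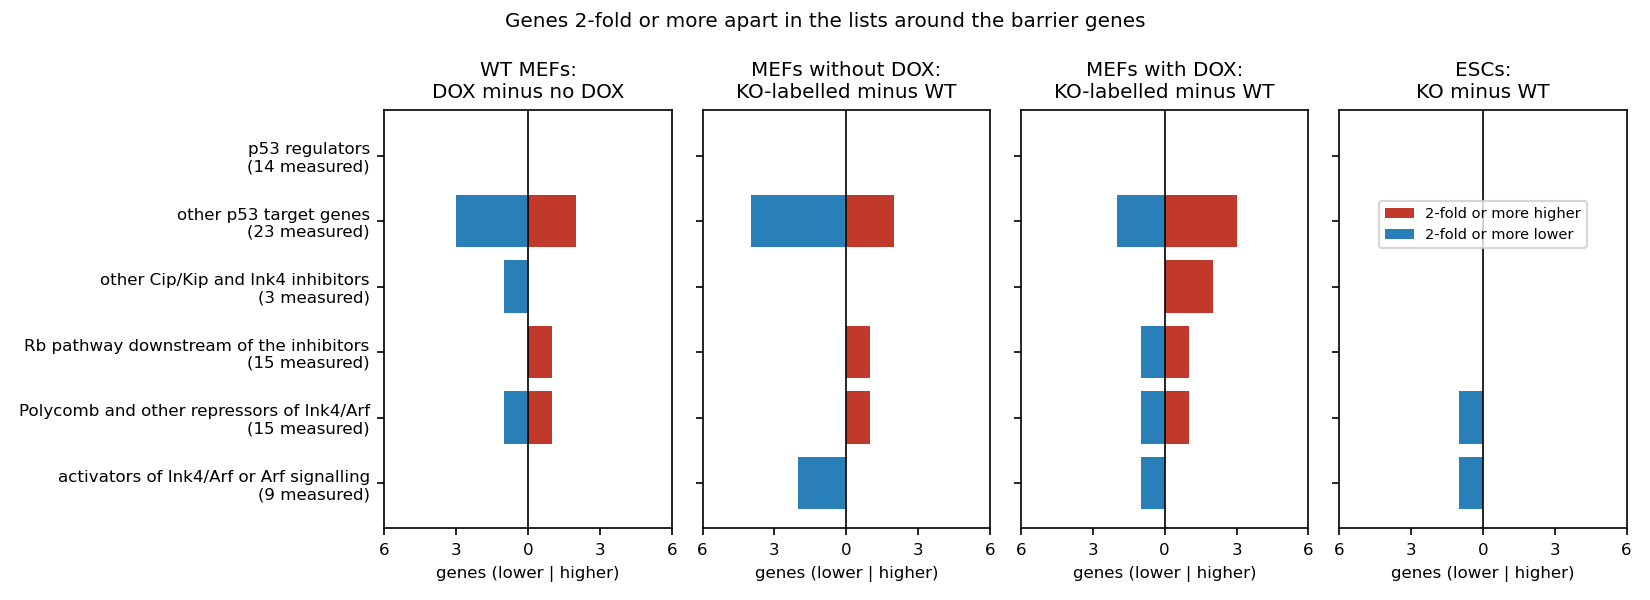
Number of genes 2-fold or more higher (right of 0) or lower (left of 0) in 6 gene lists around the barrier genes, in 4 comparisons of single arrays on the deposited values; the number of measured genes stands beside each list. The p53 regulators show 0 of 14 in all 4 panels, and the other p53 targets reach 3 higher and 4 lower.

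The factors themselves differed between the compared arrays. Myc was higher by 1.22 with DOX in WT MEFs and differed by -1.88 for the Utx label with DOX. Klf4 differed by -0.11 with DOX in WT MEFs, by -1.23 between the libraries labelled KO, and by 0.73 and -0.39 for the Utx label without and with DOX. Sox2 was under the floor on these MEF arrays, reading 5.18 and 5.31 without and with DOX in WT and 5.47 and 5.97 in the libraries labelled KO. Pou5f1 differed by 3.06 for the Utx label without DOX and by -7.48 with DOX, so the compared MEF arrays did not match in this factor.

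In the Nanog KO fibroblasts the surrounding lists depended on scaling. Cdkn1c was higher by 4.61 against WT MEFs with DOX and by 2.48 against those without, and was counted with medians aligned in both. Of the 23 other p53 targets, 8 were higher and 3 lower against WT MEFs with DOX, of 22 above the floor, where 37.2% and 5.53% of all genes were. With medians aligned 5 were higher and 5 lower, against 13.1% and 13.3%. Among p53 regulators Chek2 and Rchy1 were higher, at 1.70 and 1.40, and with medians aligned 0 were higher and 1, Sirt1, was lower. Hmga2 differed by -1.89 against WT MEFs with DOX and by -1.98 against those without.

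Genes whose levels followed those of a barrier gene most closely were taken by Pearson's r over 7 arrays with medians aligned, among 11581 genes. For Cdkn2a these were Plcg1 (r = 0.986), Mapk12 (0.983) and Sox11 (0.981), and for Cdkn2b Rhob (0.987), Plau (0.980) and Atf7 (0.975). For Cdkn2c they were Invs (0.994), Zfp46 (0.994) and AW551984 (0.991). For the p53 arm they were Sphk2, Srsf2 and Snx11 for Mdm2, Zbtb3, Ogdhl and Bcat2 for Trp53inp1, Rhbdd2, Baz1b and Exosc10 for Sesn2, and Unc45a, Foxk2 and Lfng for Phlda3. For Cdkn2a and Cdkn2c most of the values so matched lay under the floor. The arrays share scaling and cell type, and 7 points among this many genes give high values readily. Of the 21 genes so named, 4 were named also with the deposited values and 5 without the Nanog KO array, with Invs for Cdkn2c and Rhob for Cdkn2b under both.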

How the data were processed

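Log2 values were deposited, and the submitters' processing notes name RMA in Affymetrix Expression Console, which subtracts background, scales arrays to each other and combines probes into 1 value per row. Software versions, the build and any joint scaling of the Nanog KO array are not given in the sources used.

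Of 21811 rows, 14894 had 1 gene symbol, 925 several and 5992 none listed in the platform annotation. A gene with several rows was read at the row of highest mean. Differences, counts and correlations were computed with Python 3.11.15, numpy 2.4.6 and pandas 2.3.3, tested on simulated data. With 1 array per condition no test was run, and precision is limited by the number of arrays. For the barrier genes, where the lower of 2 values lay under the floor of 7.34, the fold is a bound against the floor, which was decided after seeing the values. For markers and list genes no bound was computed. All 8 measured genes are named, as are the reprogramming factors, Mdm4, Bmi1, Kdm6a and Kdm6b. Of each list the members past 2-fold are named, at most 4 in each direction. For genes with a 2-fold span, the 3 of highest r are named. Alternatives were aligned medians, quantile normalization, no floor, a floor at the 60th percentile (8.48), 1.5-fold, row means and fewer arrays, and, chosen after seeing the data, values under the floor set to it and the DOX labels of the 2 libraries labelled KO exchanged. The barrier genes and lists were chosen with earlier results of these data known.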

Additional observations from a re-analysis of the deposited data

Results flagged for a closer look

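For Cdkn2b, 2 contrasts had opposite signs in 2 settings, with at least 1 value above the floor in each, and neither was tested, since each setting had 1 array per condition. The DOX difference of Cdkn2b was -1.54 in WT MEFs and 0.97 in the libraries labelled KO, 2.51 apart. With the 2 libraries labelled KO exchanged it was -0.97, the same sign as in WT MEFs. The Utx-label difference of Cdkn2b was 1.17 in MEFs with DOX and -1.39 in ESCs, where the KO value lay under the floor, 2.57 apart, but -1.34 in MEFs without DOX, close to the ESC value. With the libraries exchanged, the MEF values of this contrast were 0.21 with and -0.37 without DOX. Each MEF value but the -1.54 rests on libraries whose DOX labels Pou5f1 contradicts.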

How the results depend on the processing

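Of 64 differences of barrier genes over the 8 comparisons, 59 kept their sign with array medians aligned, 58 with quantile normalization and 64 with row means, and the 18 that were 2-fold in size as deposited, values under the floor included, kept theirs under each. The largest move was 0.74 with aligned medians and 0.75 with quantile normalization. Counts of barrier genes at 2-fold or more moved by over 1.5 times under these settings. For DOX in WT MEFs the count of 1 became 2 with no floor and 2 at 1.5-fold, and between the libraries labelled KO 0 became 2 at 1.5-fold. For DOX in WT MEFs all-gene counts were 1337 higher and 1623 lower of 13562 with no floor. At 1.5-fold they were 1855 and 1934 of 9524, and between the libraries labelled KO 1699 and 725 of 9119. With the floor at the 60th percentile, the Utx-label count went from 2 to 1 without DOX, from 3 to 1 with DOX, and from 1 to 0 in ESCs, because this floor left Cdkn2a, Cdkn2c and the ESC value of Cdkn2b out. All-gene counts, higher and lower, were then 298 and 566 of 6109, 965 and 847 of 6673, and 26 and 152 of 5728. At 1.5-fold the Nanog KO array gave 6 genes against WT MEFs with DOX and 6 against those without, in place of 3 each. Of all genes, 6351 of 10833 were then higher and 892 lower with DOX, and 6300 of 10740 higher and 652 lower without. Of the 8 genes, on deposited values with those under the floor included, 7 spanned 2-fold over 7 arrays, 6 without the Nanog KO array and 7 without the MEF arrays labelled KO. With the 2 libraries labelled KO exchanged, an alternative chosen after seeing the data, the Utx-label count without DOX became 1, that with DOX stayed at 3 but held Trp53inp1 and Sesn2 in place of Cdkn2b and Cdkn2c, and that between the libraries stayed at 0 with every sign turned. No paired analysis was possible because each condition has 1 array and the result comes from no test. Signal over background limits Cdkn2a and Cdkn2c, which lay under the floor on 4 and 5 of the 7 arrays.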
